A study of Homo sapiens with 6 samples.

Results

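The human genome holds 55 protein-coding keratin genes by the rule used here, and all 55 were found among the 42902 Gene IDs of the count table. They are the genes whose symbol is KRT followed by a number, with keratin-associated proteins and pseudogenes left out. They comprise 29 type I and 26 type II genes. The libraries came from PANC-1, an established line derived from a human pancreatic ductal carcinoma. The control group, called shNC here, has 3 libraries with the genotype WT and the treatment shControl. The knockdown group has 3 libraries with shRRM2 as both genotype and treatment, RRM2 being the small subunit of ribonucleotide reductase. The labels name neither the hairpins nor the time of harvest. They also leave unsaid whether the cultures behind the replicates were separate. The p-values weigh the difference between the groups only against the variation among these libraries, and that variation may be technical. The study's title concerns RRM2 in metastasis of pancreatic cancer, with YBX1 and TGF-beta signalling.

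Keratins form the intermediate filaments of epithelial cells. A filament is built from pairs of an acidic type I and a basic type II chain, and each epithelium uses its own pairs. KRT8 and KRT18 are the pair of simple epithelia, joined in pancreatic ducts by KRT7 and KRT19, while KRT5 and KRT14 mark basal cells of stratified epithelia. KRT6, KRT16 and KRT17 are known for their induction in wounded or stressed epidermis, and a further set builds hair and nail.

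RRM2 itself, which checks the labels, was counted 3342 to 4435 times in the shNC libraries and 716 to 808 times in the shRRM2 libraries, leaving 20.1% of the control level. Library totals ranged from 16606947 to 23300433 counts. Of 10 epithelial and ductal markers outside the keratins, 8 passed the count filter and 7 of them were higher with shRRM2, EPCAM through the knockdown libraries alone; their summed level was 540 to 633 CPM (counts scaled to the library total) in shNC and 998 to 1023 CPM in shRRM2. Several defining epithelial markers were nearly absent: EPCAM had 53 counts over all libraries, CFTR 24, and ESRP1 0. CDKN2A, generally described as deleted in this line, had mean levels of 283 ± 10.7 CPM (SD, n = 3) with shNC and 278 ± 11.0 CPM (SD, n = 3) with shRRM2; the identity of the cells was not tested. Other cell types were read from markers over the filter level in all shNC libraries. Of these, 3 of 3 fibroblast, 2 of 3 endothelial, 3 of 3 immune and 3 of 3 keratinocyte genes were higher with shRRM2. For comparison, 26% of all tested genes and 25.5% of all genes over that level were called higher. FAP, VWF, TP63 and COL17A1 were also called higher but were below that level in at least 1 control, so they passed the filter only with the help of the knockdown libraries, which bears on their direction. Their summed levels in shNC and shRRM2 were 595 to 616 and 763 to 779 CPM for fibroblast, 67.6 to 73.9 and 93.1 to 96.5 CPM for endothelial, 29.4 to 30.6 and 87.6 to 92.1 CPM for immune, and 643 to 675 and 974 to 1024 CPM for keratinocyte markers. Most of several sums came from 1 or 2 genes. Means in shNC and shRRM2 were 578 and 707 CPM for FBLN1 (fibroblast) and 26.0 and 82.5 CPM for CD68 (immune). They were 43.3 and 44.4 CPM for EGFL7 and 26.4 and 44.8 CPM for ESAM (endothelial). MUC1, in the epithelial sum, had means of 466 and 840 CPM. No acinar or endocrine marker reached the filter. The summed level of those markers was 0.121 to 0.628 CPM in shNC and 0.110 to 0.735 CPM in shRRM2. Some defining genes of the other cell types were at or near 0, with 5 counts of PTPRC, 8 of DCN, 7 of COL1A2, and 0 of KDR, CD3E, IVL, DSG1 and DSG3. Others were counted and rose: COL1A1 by 0.73, PDGFRB by 1.65, CDH5 by 1.44, CD68 by 1.67 and CSF1R by 2.02 on the log2 scale. Not every marker rose, and EGFL7 was not called (log2 fold change 0.03). Below the filter, CD14 had 6, 7 and 4 counts after knockdown against 8, 11 and 14 in the controls. CLDN5 had 0, 0 and 2 against 2, 3 and 4, while COL3A1 had 15, 9 and 11 against 3, 2 and 0. Genes below the filter were not tested. The part of these markers in the keratin results was not tested.

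Keratins of simple epithelia made up most of the keratin transcripts in the control cells, and the main pair KRT8 and KRT18 rose with shRRM2, as did KRT17 and 4 others. At least 1 count was found for 36 of the 55 genes, and 14 passed the filter for testing. Of these 14, 7 rose (KRT8, KRT18, KRT80, KRT17, KRT15, KRT34 and KRT16), 2 were called lower (KRT7 and KRT10) and 5 were not called (KRT86, KRT81, KRT23, KRT12 and KRT20), by edgeR's quasi-likelihood test with Benjamini-Hochberg adjustment over 15866 genes. The groups differed over much of the transcriptome: 52.1% of all tested genes were called, 26% higher and 26.1% lower. The median log2 fold change was 0.40 over the 14 keratins and −0.01 over all tested genes. Of the 14 tested keratins, the 7 that rose had every shRRM2 library above every shNC library in CPM. No tested keratin had the reverse, and the groups of the other 7 overlapped. Among all 15866 tested genes, the groups were separate for 57.8%, with shRRM2 above for 4628 genes and below for 4537. A rise of at least 1 on the log2 scale was found for 4 keratins (KRT34, KRT16, KRT17 and KRT15), against 5.08% of all tested genes. Of the 14 genes, 13 were over the filter level in all shNC libraries, KRT23 being the exception, so none of the 7 rises entered through the knockdown group alone. In these bulk libraries, more cells with a transcript and more of it per cell cannot be told apart.

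**Figure D1:**
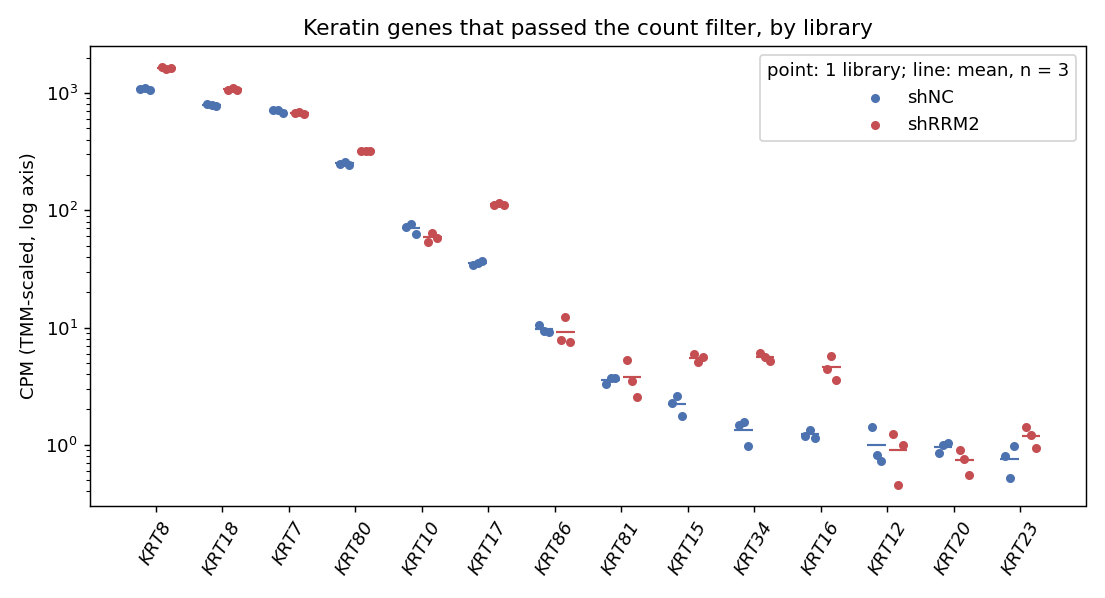
CPM (log axis) of the 14 keratin genes that passed the count filter, 1 point per library and a line at the mean of the 3 libraries of a group, shNC in blue and shRRM2 in red. The red points of KRT8, KRT18, KRT80, KRT17, KRT15, KRT34 and KRT16 lie above all their blue points, and those of the other 7 genes overlap with the blue.

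KRT8 (Gene ID 3856, chr12:52897191-52949860, GRCh38), the type II keratin of simple epithelia, was the most abundant keratin. It stood at 1084, 1093 and 1063 CPM in the shNC libraries and at 1669, 1604 and 1627 CPM in the shRRM2 libraries. Every knockdown library was above every control, and KRT8 moved from rank 46 to rank 26 among the 15866 tested genes. The log2 fold change was 0.60 ± 0.0266 (SE), 1.51-fold, with an edgeR adjusted p of 5.38e-19.

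KRT18 (Gene ID 3875, chr12:52948855-52952906), its type I partner, is the one type I gene that sits in the type II cluster, beside KRT8. It was at 805, 784 and 769 CPM in shNC and at 1065, 1096 and 1052 CPM in shRRM2. The groups were again separate, with a log2 fold change of 0.45 ± 0.0281 (SE) and an edgeR adjusted p of 4.53e-15. On its other side lies EIF4B, a translation initiation factor, which fell by 0.15 on the log2 scale (edgeR adjusted p = 8.18e-05). The annotated spans of KRT8 and KRT18 overlap, and both genes have many processed pseudogenes. Of the 50-base stretches in their transcripts, 39.7% for KRT8 and 35.1% for KRT18 also occur in another annotated gene, so reads could be shared out or lost there. How the authors' counting treated such reads is not given in the sources used here.

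KRT7 (Gene ID 3855, chr12:52233243-52255853), the second type II keratin of ducts, did not follow KRT8. It was at 718, 720 and 680 CPM in shNC and at 671, 683 and 664 CPM in shRRM2, and the groups overlapped. The log2 fold change was −0.07 ± 0.0293 (SE) with an edgeR adjusted p of 0.0442, and 9 of 13 other settings did not make the call. An antisense transcript, KRT7-AS, had a log2 fold change of 0.20 (edgeR adjusted p = 0.169). Whether counting used strand is not given in the sources used here, so reads of antisense pairs may not be separated.

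KRT19, the type I keratin usually abundant in pancreatic ducts and a common ductal marker, was close to absent. Its counts were 2, 2 and 0 in shNC and 6, 6 and 6 in shRRM2, below the filter. With KRT8, KRT18 and KRT7 high and KRT19 near the limit of detection, the ductal label was met by part of its keratins only. KRT20 and KRT23, keratins of gut and gland epithelia, were low as well, with means of 0.961 and 0.763 CPM in shNC and 0.737 and 1.19 CPM in shRRM2. Neither was called: the 95% interval of the log2 fold change was −1.19 to 0.42 for KRT20 and −0.13 to 1.45 for KRT23. In all, 2 of the 5 tested simple epithelial keratins rose and 1 was called lower, against 26% and 26.1% of all tested genes.

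Among the 22 keratins of stratified epithelia, 6 were tested. Of these, 4 rose and 1 was called lower, against 26% and 26.1% of all tested genes. KRT17 (Gene ID 3872, chr17:41619442-41624575), a type I keratin of basal appendage cells and of injured epidermis that is often found in pancreatic carcinoma, had the smallest adjusted p of the family. It was at 34.4, 35.6 and 36.9 CPM in shNC and at 112, 116 and 111 CPM in shRRM2. The libraries within each group lay close together and the groups were far apart. The log2 fold change was 1.66 ± 0.0511 (SE), 3.17-fold, with an edgeR adjusted p of 1.74e-23, and the gene moved from rank 6252 to rank 2124 among tested genes. Its neighbour outside the family, the translation factor gene EIF1, fell by 0.10 on the log2 scale (edgeR adjusted p = 0.0175).

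KRT16 (Gene ID 3868, chr17:41609778-41612767), the stress keratin next to KRT17, was low and rose from there. It was counted 21, 31 and 19 times in shNC and 79, 114 and 65 times in shRRM2, with the second knockdown library the highest. The groups did not overlap, and the log2 fold change was 1.89 ± 0.245 (SE) with an edgeR adjusted p of 6.26e-08. Its type II partners KRT6A, KRT6B and KRT6C had 6, 11 and 1 counts over all libraries, KRT6B with 2, 1 and 6 in shNC and 2, 0 and 0 in shRRM2. These few counts are too low for a comparison.

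KRT16 and KRT17 are close in sequence, which bears on whether a read can be placed on one of them. Their longest shared run, 61 bases in the coding part of exon 6 of both genes, lies at chr17:41610343-41610403 in KRT16 and at chr17:41620671-41620731 in KRT17 (GRCh38, minus strand, GENCODE 29 transcripts), and is shown because a shorter fragment inside it could come from either gene. The 61 bases read, 5′ to 3′:
KRT16 and KRT17: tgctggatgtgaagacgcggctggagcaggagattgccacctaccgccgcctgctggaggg
Of the 50-base stretches of KRT16, 22.0% occur in another annotated gene, with KRT14 and pseudogenes holding the most, as do 17.4% of those of KRT17. KRT14 had 3 counts in all. The shared stretches with KRT17 number 16 of 1595 in KRT16, and the part of reads from KRT17 in the KRT16 counts was not tested.

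KRT15 (Gene ID 3866, chr17:41513745-41518890), a type I keratin of basal cells and of hair follicle stem cells, was counted 40, 60 and 29 times in shNC and 106, 101 and 101 times in shRRM2. The groups were separate, and the log2 fold change was 1.30 ± 0.198 (SE) with an edgeR adjusted p of 1.20e-06. Its neighbours on either side, KRT13 of mucosal epithelia and KRT19, had 22 counts each. KRT13 was counted 0, 2 and 3 times in shNC and 8, 2 and 7 times in shRRM2, below the filter.

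KRT80 (Gene ID 144501, chr12:52168996-52192014), a type II keratin described in many epithelia, was at 249, 257 and 245 CPM in shNC and at 319, 322 and 317 CPM in shRRM2. All knockdown libraries were above all controls, with a log2 fold change of 0.35 ± 0.0324 (SE) and an edgeR adjusted p of 4.76e-11. It lies beside KRT7 on chromosome 12.

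KRT10 (Gene ID 3858, chr17:40818117-40822614), the type I keratin of differentiating epidermal cells, was at 72.6, 77.0 and 62.1 CPM in shNC and at 53.2, 64.5 and 58.4 CPM in shRRM2. The groups overlapped, the third control lying below the second knockdown library. The log2 fold change was −0.27 ± 0.0811 (SE) with an edgeR adjusted p of 0.0132, and the call was lost without shNC replicate 1 (−0.25, edgeR adjusted p = 0.0751). Its antisense gene KRT10-AS1 fell by 0.32 on the log2 scale (edgeR adjusted p = 0.0156), and the reads of the pair may not be separated. KRT1 and KRT2, the epidermal type II partners of KRT10, were at 0 in every library. KRT12, the corneal type I keratin, was not called, with 25, 19 and 12 counts in shNC, 22, 9 and 18 in shRRM2, and a log2 fold change of −0.15 (95% interval −0.99 to 0.69).

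Of the 26 keratins of hair and hair follicle, 13 were at 0 in all libraries and 3 were tested. KRT34 (Gene ID 3885, chr17:41377669-41383816), a type I hair keratin, had the highest fold change of the 14 tested keratins. It was counted 26, 36 and 16 times in shNC and 107, 112 and 94 times in shRRM2. The lowest knockdown library was thus well above the highest control, and the log2 fold change was 2.04 ± 0.220 (SE), 4.12-fold, with an edgeR adjusted p of 1.48e-09. That placed it 155th from the top among the 15866 tested genes by fold change.

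KRT34 lies among other hair keratins on chromosome 17. The gene on one side, KRT33B, had 2 counts in all and the gene on the other, KRT31, had 0, although these are its close relatives. Of the 50-base stretches of KRT34, 11.4% also occur in another annotated gene, all of them among KRT33A, KRT33B and KRT31. The longest run that the coding parts of KRT34 and KRT33B share is 113 bases in exon 1 of both, at chr17:41381990-41382102 in KRT34 and at chr17:41369494-41369606 in KRT33B (GRCh38, minus strand, GENCODE 29). It is shown, 5′ to 3′, because a fragment inside it could be placed on either gene:
KRT34 and KRT33B: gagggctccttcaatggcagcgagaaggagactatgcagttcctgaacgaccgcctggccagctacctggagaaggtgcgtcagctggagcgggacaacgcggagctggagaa
Outside such stretches the 2 transcripts differ. KRT33B was counted 0, 0 and 0 times in shNC and 0, 1 and 1 times in shRRM2, while KRT34 reached 112 in a library. The placing of shared reads was not tested.

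KRT86 and KRT81, type II hair keratins, were not called. KRT86 was at 10.4, 9.36 and 9.10 CPM in shNC and at 7.80, 12.3 and 7.56 CPM in shRRM2, with a log2 fold change of −0.05 (95% interval −0.37 to 0.26). KRT81 was at 3.31, 3.68 and 3.70 CPM in shNC and at 5.31, 3.52 and 2.54 CPM in shRRM2, with a log2 fold change of 0.08 (95% interval −0.36 to 0.52). For both genes the knockdown libraries spread on either side of the controls. Their transcripts share 721 stretches of 50 bases, 39.2% of KRT86 and 44.6% of KRT81 being found in another gene, so the split between them is uncertain. The annotated span of KRT81 also lies inside that of KRT86, on the opposite strand, and whether counting used strand is not given. The longest run their coding parts share is 605 bases over 4 exons. KRT87P, a transcribed pseudogene of the same kind, fell by 0.70 on the log2 scale (edgeR adjusted p = 0.00199).

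**Figure D2:**
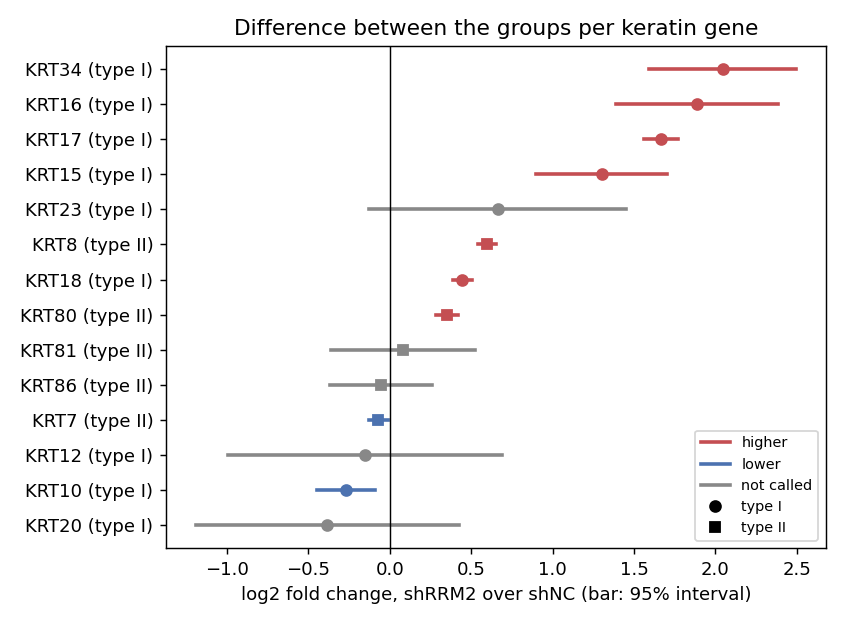
Log2 fold change of shRRM2 over shNC for each tested keratin, with bars for the 95% interval, circles for type I and squares for type II genes. The 4 highest values, from 1.30 to 2.04, belong to type I genes. The intervals come from the same test as the calls, so no interval of a called gene can span 0.

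A further 22 keratins had counts but stayed below the filter, 15 of them with 1 to 9 counts in total. Of the 7 with 10 or more, KRT36, a type I hair keratin, had 0 counts in all shNC libraries and 4, 8 and 3 in shRRM2; KRT39 had 5, 13 and 6 against 8, 17 and 11, and KRT40 had 1, 6 and 3 against 3, 6 and 5. KRT83 had 0, 0 and 7 against 0, 3 and 0. KRT36 was thus seen in the knockdown libraries alone, at counts too few for a fold. The basal pair KRT5 and KRT14 had 2 and 3 counts in all. The 19 genes at 0 were the hair and follicle keratins KRT26, KRT28, KRT31, KRT33A, KRT35, KRT37, KRT38, KRT71, KRT72, KRT74, KRT75, KRT82 and KRT85, the stratified keratins KRT1, KRT2, KRT24, KRT77 and KRT79, and KRT222. A count of 0 allows up to 3 counts, which is 0.129 to 0.181 CPM depending on the library, counting error only.

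By type, 5 of 9 tested type I genes rose and 1 was called lower, against 2 and 1 of 5 type II genes. The shares over all tested genes were 26% and 26.1%. The median log2 fold changes of type I and type II genes were 0.66 and 0.08, and the difference between the types was not tested. By position, 27 members lie on chromosome 12 and 28 on chromosome 17; of the tested ones, 3 of 6 rose on chromosome 12 and 4 of 8 on chromosome 17.

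Levels can be compared between genes per length, as CPM per kilobase of mRNA. On that scale the shNC means were 615 for KRT8, 554 for KRT18, 403 for KRT7, 64.9 for KRT80, 33.2 for KRT10 and 23.5 for KRT17, and no other keratin exceeded the 4.61 of KRT86. In shRRM2 the means were 931 for KRT8, 754 for KRT18, 384 for KRT7, 82.8 for KRT80, 74.4 for KRT17 and 27.6 for KRT10. KRT17 thus passed KRT10 in the order, and KRT18 and KRT7 drew apart. KRT8, KRT18 and KRT7 together made up 90.8% to 92.3% of the summed keratin level in every library.

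The make-up of the summed level shifted with the knockdown. KRT8 went from 36.1% ± 0.339 to 41.0% ± 0.871 (SD, n = 3 each), KRT7 from 23.6% ± 0.275 to 16.9% ± 0.149, and KRT17 from 1.38% ± 0.0772 to 3.28% ± 0.0540. KRT18 was at 32.5% ± 0.408 and 33.2% ± 0.506. These shares do not depend on library scaling. Each is part of a sum, so it also depends on the levels of the other keratins. The mean level of KRT7 itself went from 403 to 384 CPM per kilobase, with overlapping groups. The shares of KRT8, KRT7 and KRT17 did not overlap between the groups, nor did those of KRT80 and KRT10, which were lower in shRRM2. No p is given because 3 libraries against 3 cannot go below an exact permutation p of 0.1.

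**Figure D3:**
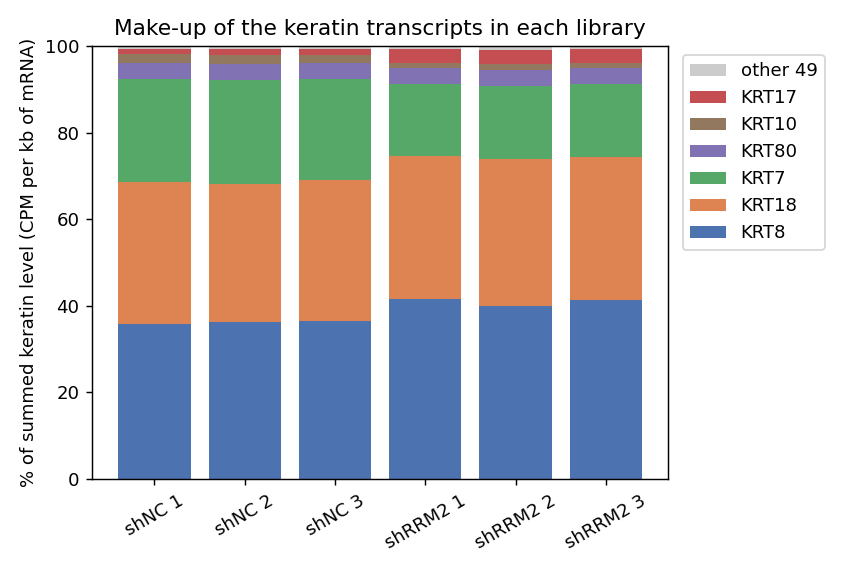
Share of each keratin in the summed keratin level (CPM per kilobase of mRNA, in %) per library, the 6 most abundant genes in colour and the other 49 together in grey. KRT7 (green) takes 23.3% to 23.8% in the shNC libraries and 16.7% to 17% in the shRRM2 libraries, while KRT8 (blue) and KRT17 (red) are larger in shRRM2.

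Summed over each type, the level went from 615 ± 14.7 to 867 ± 20.1 CPM per kilobase for type I (1.41-fold) and from 1090 ± 22.8 to 1404 ± 16.7 for type II (1.29-fold; SD, n = 3 each). The ratio of type II to type I was 1.75, 1.80 and 1.77 in shNC and 1.65, 1.57 and 1.63 in shRRM2. On this scale and with its limits, type II transcripts remained in excess, and less so in every knockdown library. Within the main pair, the ratio of KRT8 to KRT18 was 1.09, 1.13 and 1.12 in shNC and 1.27, 1.18 and 1.25 in shRRM2. Type I without KRT18 went from 61.1 to 113 (1.85-fold). Its largest part was KRT10 in shNC (33.2, with KRT17 at 23.5) and KRT17 in shRRM2 (74.4, with KRT10 at 27.6). Type II without KRT8 stayed at 474 and 473, a ratio of 0.997 that is 1.02 with library size alone. Within that sum KRT80 rose from 64.9 to 82.8, while KRT7 went from 403 to 384. Keratins took 0.286% to 0.296% of all counts in shNC and 0.393% to 0.398% in shRRM2.

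Genes that anchor keratin filaments were mostly higher with shRRM2. Of 18 plakins and other linkers at desmosomes and hemidesmosomes, 17 were tested, 14 were called higher and 2 lower. Among the 16 over the filter level in all shNC libraries, 13 rose and 2 were called lower, with a median log2 fold change of 0.29, where 25.5% of all genes over that level were called higher. ITGB4, the hemidesmosome integrin chain, rose from 172 to 399 CPM (log2 fold change 1.21 ± 0.0344 SE, edgeR adjusted p = 2.12e-24). The desmosomal cadherin DSC2 rose from 1.48 to 3.77 CPM (1.32). COL17A1, a hemidesmosome collagen, was counted 8, 7 and 9 times in shNC and 53, 82 and 81 times in shRRM2, and passed the filter only through the knockdown libraries. The plakins PPL, EVPL and PLEC rose by 0.91, 0.62 and 0.52 on the log2 scale. The 2 genes called lower, PKP4 (−0.20) and DSG2 (−0.13), are named because so few fell.

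Other intermediate filament genes were called in both directions: of 17, 10 were tested, 4 rose and 3 were called lower, with a median of 0.06. The shares over all tested genes were 26% higher and 26.1% lower. The lamin genes LMNB1 and LMNB2, of the nuclear filament, fell by 0.32 and 0.18, SYNM fell by 0.20 and INA rose by 0.29. Vimentin (VIM), the mesenchymal filament, is named for its role after its values were seen, and went from 555 ± 12.4 to 602 ± 9.66 CPM (SD, n = 3 each; log2 fold change 0.12, edgeR adjusted p = 0.00101).

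Genes that bind, modify or clear keratins had 6 of 18 members called higher and 6 lower, shares near the 26% and 26.1% of all tested genes, with a median log2 fold change of −0.06. SFN, the epithelial 14-3-3 protein that binds KRT17, rose by 0.61, whereas YWHAZ of the same family fell by 0.42. SQSTM1, an autophagy receptor found in keratin inclusions with KRT8 and KRT18, fell from 871 to 473 CPM (−0.88), and STUB1, a ubiquitin ligase that acts with chaperones, fell by 0.50.

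Of 18 cornified envelope and keratinocyte differentiation genes, 11 were at 0 and 4 were tested, with 3 higher and a median of 1.06. Among all tested genes 26% were called higher. TGM2, a tissue transglutaminase made in many cell types, rose from 165 to 481 CPM (1.54), the protease inhibitor PI3 from 3.17 to 11.0 CPM (1.80) and TGM1, the keratinocyte transglutaminase, from 3.66 to 5.51 CPM (0.58). IVL, LORICRIN and FLG, the defining genes of the programme, were at 0.

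Among 28 transcription regulators described for keratin genes, 23 were tested, 14 were called higher and 3 lower. Among the 20 over the filter level in all shNC libraries, 12 rose and 3 were called lower, with a median of 0.25. Of all genes over that level, 25.5% were called higher. SOX9 rose from 4.77 to 11.7 CPM (1.31) and the AP-1 member FOSL1 from 48.4 to 72.6 CPM (0.59). HNF4A was counted 10, 11 and 9 times with shNC and 13, 30 and 25 times with shRRM2, and passed the filter only through the knockdown libraries. SREBF1 and TFAP2A fell by 0.70 and 0.48 on the log2 scale. GRHL2, OVOL1, SOX2 and CDX2 were at 0.

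**Figure D4:**
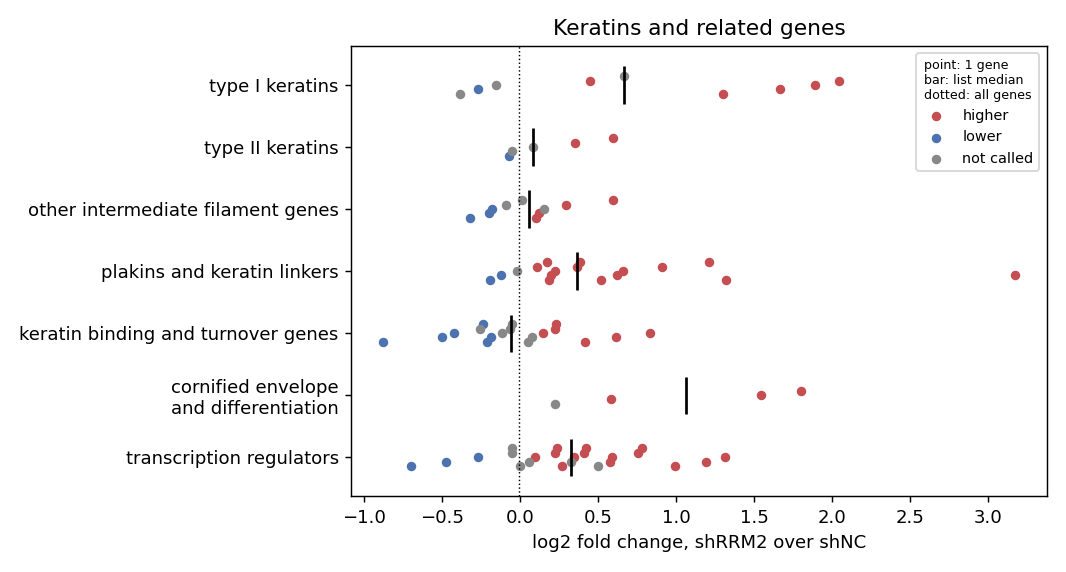
Log2 fold change of shRRM2 over shNC for each tested gene of the keratin types and of 5 related lists, red for higher, blue for lower and grey for not called, with a black bar at the list median and a dotted line at the median of all tested genes. Most linker genes lie right of the dotted line, and the keratin binding and turnover genes lie on both sides of it.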

How the data were processed

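Poly(A)-selected RNA of 6 PANC-1 libraries was sequenced from a directional kit, per the labels' protocols. The authors deposited raw read counts per Gene ID. Per the submitters' processing notes, hg38, fastp 0.23.4 and featureCounts were used; the aligner, its settings and the annotation release were not given in the sources used here. The columns of the knockdown libraries are prefixed si where the labels say sh. Of 42902 Gene IDs, 40120 matched a RefSeq symbol; the rest held 1.25% of counts.

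Counts were filtered with filterByExpr (0.560 CPM in 3 libraries), scaled by TMM and tested with edgeR 4.0.16 (R 4.3.3), robust quasi-likelihood, group as the only term, adjusted p under 0.05. CPM used TMM-scaled totals, and lengths came from the shortest principal GENCODE 29 transcript. Standard errors are the log2 fold change divided by the root of F. The test was also run on simulated counts in which far fewer genes changed than were called here, so that run does not check it in this setting. Alternatives used DESeq2 1.42.0, limma 3.58.1, other scalings and filters, a replicate block and leaving out each library.

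Members, lists and tests were chosen with earlier results of these data known. Every tested keratin was named, those below the filter with 10 or more counts by their counts, and from each related list the 4 smallest adjusted p and calls of at least 1 in log2 size; markers and neighbours were named for their roles. Within groups libraries differed beyond counting noise (chi-square per degree of freedom 2.23 to 3.88).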

Additional observations from a re-analysis of the deposited data

How the results depend on the processing

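Over 13 alternatives that refit the genes, 164 of 180 keratin fold changes kept their sign and side of the threshold, 6 of uncalled genes changed sign, 10 lost the call and 0 of called genes reversed. The count of keratins called higher was 7 in each alternative except 8 without a filter, which added KRT36 (edgeR adjusted p = 0.00871). The count called lower, 2 in the report, was 0 at an adjusted p of 0.01 and 1 with RLE size factors, with library size alone, without a filter, with at least 1 CPM in 3 libraries and with DESeq2; leaving out 1 library gave 0 to 2, with 0 without shNC replicate 1. The losses were KRT7 in 9 settings (adjusted p 0.0558 with RLE, −0.03 and 0.327 with library size alone) and KRT10 without shNC replicate 1; the cause was not tested. The summed type II ratio was 1.32 with library size alone against 1.29. Linkers called lower were 1 with library size alone and 1 to 2 on leaving out 1 library. With the replicate block, 7 keratins were higher and 2 lower, and 4102 and 4142 of all genes. Same-numbered libraries did not deviate together (correlations −0.00677, −0.00339 and −0.0208). These values cannot show whether same-numbered libraries were prepared together. The sign changes were those of KRT86, KRT81 and KRT12 on leaving out 1 library. Depth limits KRT23, KRT12 and KRT20, which had 9 to 25 counts per library and wide intervals.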
